A study of Mus musculus with 6 samples.

Results

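Arginases, the enzymes that supply and import arginine, and the enzymes that turn ornithine into polyamines were followed as 10 genes in the epidermis of newborn mice with and without Znf750, among 55487 genes listed for each library. The genes were Arg1, Arg2, Nos2, Ass1, Asl, Slc7a1, Slc7a2, Odc1, Srm and Sms. They were chosen by name, as steps of one pathway, with earlier results of these libraries known, among them the higher Arg1 level in the Znf750_cKO group. Differences between the groups in these 10 genes are therefore descriptions, and no p-value is given for them.

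The groups were 3 libraries labelled Znf750 cKO, written Znf750_cKO here, and 3 libraries labelled Control, all from back skin epidermis at postnatal day 0. Epidermis was freed from dermis with dispase and dispersed with trypsin, no cell sort is named, and messenger RNA was enriched by its poly(A) tail. The sources used here give neither the strain or sex of the mice, nor the genotype of the Control mice, nor how or in which cells the gene was deleted. The labels do not say whether each library came from a separate pup, so the spread between libraries may be partly technical. The targeted gene, which mouse annotation calls Zfp750, stood at 0.99, 0.83 and 1.47 FPKM in Znf750_cKO libraries and at 44.8, 32.0 and 34.9 FPKM in Control libraries. FPKM are fragments counted per unit of transcript length and of library size, so levels can be compared between genes of unlike length. Steps in the low values place the depth at about 23.0 to 35.3 M reads (megareads) in Znf750_cKO libraries and 21.5 to 28.4 M reads in Control libraries. The 6 keratinocyte markers summed to 32900 to 41200 FPKM in Znf750_cKO and 28000 to 36300 FPKM in Control, with overlapping groups.

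Arginine is taken up by cationic amino acid transporters or made from citrulline by argininosuccinate synthase and lyase. Arginases split it into urea and ornithine, and nitric oxide synthases compete for the same arginine. Ornithine decarboxylase turns ornithine into putrescine, and spermidine synthase and spermine synthase extend putrescine to spermidine and spermine. These polyamines bind nucleic acids and are needed by dividing keratinocytes. Cells keep their level in range through antizymes, which mark ornithine decarboxylase for breakdown, and through acetylation of spermidine and spermine.

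The arginases went in opposite directions: Arg1, the cytosolic enzyme of the urea cycle, was higher in the Znf750_cKO libraries, and Arg2, the mitochondrial enzyme, was lower. They are encoded on separate chromosomes of the GRCm38 build, Arg1 (ENSMUSG00000019987) on chromosome 10 from 24915221 to 24927484 on the minus strand and Arg2 (ENSMUSG00000021125) on chromosome 12 from 79130777 to 79156301 on the plus strand. The coding sequences are 65.0% identical over 963 aligned bases, and the longest run of identical bases is 12. The windows of 100 bases around that run are shown because they are where the coding sequences share their longest run, and 100 nucleotides is the length of a read. They come from the GENCODE M21 transcripts, and capitals mark bases that the aligned positions share.
Arg1, exonic coding bases 479 to 578 within chr10:24916442-24916856: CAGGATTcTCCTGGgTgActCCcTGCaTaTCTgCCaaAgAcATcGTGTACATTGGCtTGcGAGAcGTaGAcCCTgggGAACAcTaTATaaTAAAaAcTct
Arg2, exonic coding bases 536 to 635 within chr12:79150745-79150970: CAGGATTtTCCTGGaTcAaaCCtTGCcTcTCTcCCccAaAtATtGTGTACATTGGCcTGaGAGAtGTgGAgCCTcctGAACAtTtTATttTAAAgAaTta
Within these windows 70 of 100 positions were identical and 30 differed. No stretch of 100 bases occurs in transcripts of both genes, so a full-length read without errors fits 1 of them at most.

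Arg1 stood at 27.2, 24.2 and 18.1 FPKM in Znf750_cKO replicates 1, 2 and 3, and at 1.82, 4.75 and 4.18 FPKM in Control replicates 1, 2 and 3. The lowest Znf750_cKO library lay above the highest Control library, and Control replicate 1 was the lowest of the 6. The mean was 23.2 ± 4.65 FPKM in Znf750_cKO and 3.58 ± 1.55 FPKM in Control (SD, n = 3 each), a 6.46-fold ratio of means. On the log2(FPKM + 1) scale, which understates changes of low genes, the change was 2.44 (SE 0.29, 95% interval 1.75 to 3.14, limma). If all reads came from the longest coding transcript, these levels rest on an estimated 1322, 883 and 571 reads in Znf750_cKO and 71, 140 and 135 reads in Control. No other annotated gene overlaps Arg1 and no stretch of 100 of its bases occurs in transcripts of another gene.

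Arg2 stood at 3.65, 5.31 and 2.80 FPKM in Znf750_cKO replicates 1, 2 and 3, and at 13.9, 12.8 and 11.1 FPKM in Control replicates 1, 2 and 3. Every Znf750_cKO library lay below every Control library. The mean was 3.92 ± 1.28 FPKM in Znf750_cKO and 12.6 ± 1.39 FPKM in Control (SD, n = 3 each), 3.21-fold lower in Znf750_cKO, with a log2 change of -1.49 (SE 0.20, 95% interval -1.95 to -1.04). Vti1b, a membrane fusion gene on the opposite strand, overlaps an exon of Arg2, and 14.45% of the stretches of 100 bases in Arg2 occur in transcripts of another gene, nearly all of them in Vti1b. Vti1b stood at 42.9, 50.9 and 40.8 FPKM in Znf750_cKO libraries and at 43.4, 57.1 and 53.9 FPKM in Control libraries, with overlapping groups (log2 change -0.19, limma adjusted p = 0.47). The strand setting of the authors' counting is not stated, so reads of the shared stretch may be counted for either gene.

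Arg1 therefore made up most of the summed arginase message in Znf750_cKO epidermis and the smaller part in Control. Its share of the sum was 88.2, 82.0 and 86.6% in Znf750_cKO libraries and 11.6, 27.0 and 27.3% in Control libraries. This gap follows from the levels of both genes and adds no support. The sum of both arginases was 30.8, 29.5 and 20.8 FPKM in Znf750_cKO libraries and 15.7, 17.6 and 15.3 FPKM in Control libraries. The sum was higher in every Znf750_cKO library than in any Control library, and least so in Znf750_cKO replicate 3.

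**Figure D1:**
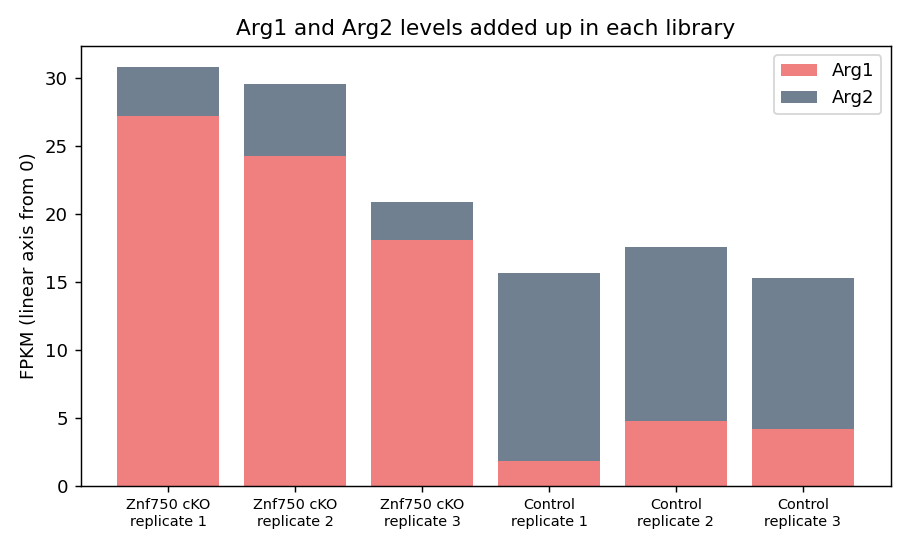
Stacked bars give Arg1 (lower part) and Arg2 (upper part) in FPKM for each of the 6 libraries, Znf750_cKO on the left. Arg1 fills 82.0 to 88.2% of the bar in Znf750_cKO libraries and 11.6 to 27.3% in Control libraries.

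In mice Arg1 is also known as a gene of alternatively activated macrophages. The summed level of 12 macrophage and Langerhans cell markers was 20.9 to 26.5 FPKM in Znf750_cKO libraries and 144 to 245 FPKM in Control. Of the 12, 11 were called lower (limma adjusted p under 0.05), against 3.10% of all tested genes. Of these 11, Adgre1, Mrc1 and H2-Aa were under 1 FPKM in each Znf750_cKO library and passed the filter on low values through Control alone, so their calls are not read. The remaining marker, Cd207, listed as a Langerhans cell gene, stood at 0 to 0.03 FPKM in Znf750_cKO and 0 to 0.06 FPKM in Control. Of 4 markers of alternatively activated macrophages, Retnla and Chil3 were listed at 0 in all 6 libraries. Cd163 was at 0, 0.01 and 0.02 FPKM in Znf750_cKO libraries and at 0 in each Control library. The list summed to 0.17 to 0.24 FPKM in Znf750_cKO and 1.45 to 4.57 FPKM in Control. In Control this sum was Mrc1 alone, whose call is not read, so the list adds no further marker. Arg1 was higher and the sum of the 12 macrophage and Langerhans cell markers was lower in Znf750_cKO libraries. Which cells carried the Arg1 message was not tested. In bulk epidermis, fewer cells of a type and less RNA per cell cannot be told apart. The 6 hair follicle markers summed to 187 to 220 FPKM in Znf750_cKO and 281 to 474 FPKM in Control. Most of this sum was Krt79, at 123, 148 and 125 FPKM in Znf750_cKO and 414, 392 and 238 FPKM in Control. Krt25 and Krt71 were lower in each Znf750_cKO library than in any Control library, Lhx2 and Shh were higher, and Msx2 overlapped. Krt79 was called lower and Lhx2 called higher. Krt71 was also called lower, after it passed the filter through Control alone. The 5 red blood cell markers summed to 6.92 to 11.1 FPKM in Znf750_cKO and 19.6 to 52.7 FPKM in Control, without overlap. Hba-a2 was called lower, and Hbb-bs was lower in each Znf750_cKO library than in any Control library but not called. Hba-a1, Hbb-bt and Alas2 overlapped, and the mean of Alas2 was 0.357 FPKM in Znf750_cKO and 0.247 FPKM in Control. The part of hair follicle and blood cells in the arginase differences was not tested.

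Nos2, the inducible nitric oxide synthase and a marker of activated macrophages, was at the limit of detection. It was listed at 0, 0 and 0.01 FPKM in Znf750_cKO libraries and at 0, 0.01 and 0.01 FPKM in Control libraries. With the estimated depths, 1 read on its transcript of 4192 bases is worth 0.0069 to 0.011 FPKM, so no library held more than about 1 read. A count of 0 allows up to 3 reads, or 0.021 to 0.034 FPKM over the 6 libraries, from counting error only. Nos2 was not tested, and no ratio is given.

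The enzymes that make arginine from citrulline overlapped between the groups. Ass1, argininosuccinate synthase, was the most abundant of the 10 genes in 5 libraries, at 74.2, 73.5 and 46.9 FPKM in Znf750_cKO and 60.5, 47.6 and 58.5 FPKM in Control. Znf750_cKO replicate 3 was below all other libraries, and the log2 change was 0.20 (SE 0.19, 95% interval -0.25 to 0.64). Ass1 shares 26.94% of its stretches of 100 bases with the processed pseudogene Gm5424, which was listed at 0.15 FPKM or less in all 6 libraries. Asl, argininosuccinate lyase, had 10.2, 12.3 and 8.60 FPKM in Znf750_cKO and 10.6, 14.3 and 7.74 FPKM in Control. Its log2 change was -0.04 (SE 0.22, 95% interval -0.55 to 0.46), and it turned positive when libraries were rescaled by median ratios (0.06), trimmed means (0.08) or quantiles (0.04).

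Of the arginine transporters, Slc7a1, which encodes the widely expressed transporter CAT1, had higher levels in Znf750_cKO with a narrow gap between the groups. It had 35.8, 27.7 and 41.1 FPKM in Znf750_cKO libraries and 26.8, 19.7 and 23.2 FPKM in Control libraries. The lowest Znf750_cKO library, replicate 2, was just above the highest Control library, replicate 1. The means were 34.9 ± 6.77 FPKM in Znf750_cKO and 23.2 ± 3.54 FPKM in Control (SD, n = 3 each), with a log2 change of 0.56 (SE 0.17, 95% interval 0.17 to 0.95). Slc7a1 was not past the threshold over all genes, and of 17 other settings it passed with trimmed-mean scaling only. Slc7a2, which encodes CAT2, was several-fold lower than Slc7a1 in each library, at 4.67, 3.70 and 4.26 FPKM in Znf750_cKO and 3.70, 2.90 and 3.16 FPKM in Control. Its groups met at 3.70 FPKM, and its log2 change was 0.29 (SE 0.15, 95% interval -0.06 to 0.64). The ratio of Slc7a1 to Slc7a2 was 7.48 to 9.65 in Znf750_cKO and 6.79 to 7.35 in Control.

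The polyamine enzymes did not move together. Odc1, ornithine decarboxylase, which makes putrescine and is the regulated first step, had 20.5, 23.7 and 22.2 FPKM in Znf750_cKO libraries and 30.6, 35.0 and 31.2 FPKM in Control libraries. The groups were tight and did not overlap, with means of 22.2 ± 1.59 FPKM in Znf750_cKO and 32.3 ± 2.36 FPKM in Control (SD, n = 3 each), a log2 change of -0.52 (SE 0.10, 95% interval -0.77 to -0.28). Srm, spermidine synthase, had 49.7, 60.0 and 60.1 FPKM in Znf750_cKO and 33.9, 47.3 and 40.9 FPKM in Control. Its lowest Znf750_cKO library was just above its highest Control library, and its log2 change was 0.47 (SE 0.14, 95% interval 0.14 to 0.80), not past the threshold over all genes. Sms, spermine synthase, was level, with 21.1, 18.5 and 21.8 FPKM in Znf750_cKO and 20.1, 22.0 and 21.9 FPKM in Control (log2 change -0.06, 95% interval -0.30 to 0.19, and 0.05 and 0.07 with median-ratio and trimmed-mean scaling). The ratio of Srm to Odc1 within a library, which scaling does not touch, was 2.42, 2.53 and 2.70 in Znf750_cKO and 1.11, 1.35 and 1.31 in Control. It sets a gene with higher levels over one with lower levels, so its gap follows from theirs and adds no support.

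Odc1 shares 10.13% of its stretches of 100 bases with other genes, nearly all processed pseudogenes. The pseudogenes with most of these, Gm17709, Gm7993 and Gm9115, were listed at 1.10 FPKM or less in Znf750_cKO libraries and 0.92 FPKM or less in Control libraries. Sms shares 16.42% with other genes, and its pseudogene Sms-ps was at 1.59 to 5.20 FPKM in Znf750_cKO and 1.12 to 4.94 FPKM in Control. Srm and Slc7a1 share none.

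The Odc1 promoter is shown because Odc1 makes the first polyamine, and its levels were lower in Znf750_cKO than in Control. It is the RefSeq window of GRCm38.p6, chr12:17544623-17544922 on the plus strand, and capitals mark matches to GGGCGG, the GC box, or to CCNNAGGC, the motif reported for human ZNF750, on either strand.
Odc1: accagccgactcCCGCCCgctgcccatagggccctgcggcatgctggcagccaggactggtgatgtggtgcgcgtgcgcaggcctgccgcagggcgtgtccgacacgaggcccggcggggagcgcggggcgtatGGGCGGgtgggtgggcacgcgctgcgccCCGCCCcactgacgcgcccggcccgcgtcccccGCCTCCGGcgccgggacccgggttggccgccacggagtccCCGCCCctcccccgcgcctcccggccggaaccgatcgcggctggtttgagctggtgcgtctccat
The letters CCNNAGGC occur on the minus strand from base -55 to base -48, counted from the annotated start at 0, and GGGCGG occurs 4 times, with no overlap between the motifs. CCNNAGGC occurs in 24.1% and GGGCGG in 35.7% of 32851 promoter windows of this length, and a match here describes letters only. Windows were also at hand for Ass1, Slc7a1 and Sms, with 2 annotated starts each for Slc7a1 and Sms. Of these 5 windows, CCNNAGGC occurs in that of Ass1, from base -13 to base -6. The E-box CACGTG, found in 7.2% of all windows, occurs in the window of Ass1 and in 1 window of Sms, and the TATA box TATAAA, found in 13.6%, in 1 window of Slc7a1. Arg1, Arg2, Nos2, Asl, Slc7a2 and Srm are named only.

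**Figure D2:**
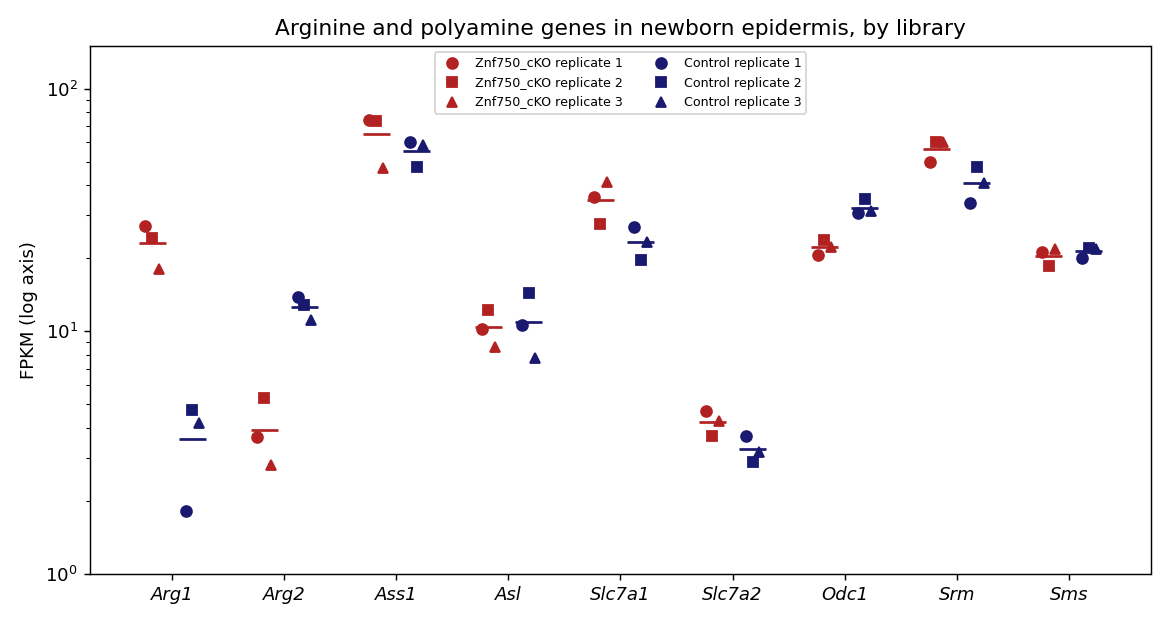
Points give FPKM on a log axis for 9 genes in each library, with Znf750_cKO left of Control for each gene, a marker shape per replicate number and a line at the group mean. The groups are apart for Arg1, Arg2, Slc7a1, Odc1 and Srm. Nos2, at 0.01 FPKM or less, is not drawn.

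The order of the 10 levels differed between the groups mainly through the arginases and Odc1. In Control libraries, Ass1 ranked 1st, Srm 2nd and Odc1 3rd in each, Slc7a1 and Sms ranked 4th or 5th, Arg2 and Asl 6th or 7th, and Arg1 and Slc7a2 8th or 9th. In Znf750_cKO libraries, Ass1 and Srm held ranks 1 and 2 with overlapping levels, Slc7a1 ranked 3rd, Arg1, Odc1 and Sms held ranks 4 to 6 with overlapping levels, Asl ranked 7th, and Arg2 and Slc7a2 held ranks 8 and 9 with overlapping levels. Nos2 was last in all 6 libraries. Levels of neighbours in the order overlapped in Control for Srm and Odc1, for Slc7a1 and Sms, for Arg2 and Asl, and for Arg1 and Slc7a2.

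Across all genes, limma called 577 of 13688 tested genes at a Benjamini-Hochberg adjusted p under 0.05 (4.22%), 152 higher (1.11%) and 425 lower (3.10%) in Znf750_cKO. Of the 10 genes, 9 were tested, Arg1 was called higher, Arg2 and Odc1 were called lower, and 6 were not past the threshold. The groups did not overlap in 5 of the 9, against 28.0% of all tested genes. Of these 5, 3 were higher, against 8.28% of all tested genes, and 2 lower, against 19.7%. The median log2 change was 0.20 over the 9 genes and -0.08 over all tested genes. These summaries use the contrast that was known when the genes were chosen, so nothing is read from them. The same holds for calls of these genes in other settings, which are given as a description. Without Znf750_cKO replicate 1, 0 of the 9 and 100 genes in all were called, and the log2 changes were 2.32 for Arg1, -1.47 for Arg2 and -0.47 for Odc1. Arg1 and Arg2 were each called in the other 5 fits that leave out 1 library, and Odc1 in 0 of 6, with log2 changes from -0.57 to -0.46. Odc1 was also not called with median-ratio, trimmed-mean or quantile scaling, where its log2 change ran from -0.49 to -0.39.

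**Figure D3:**
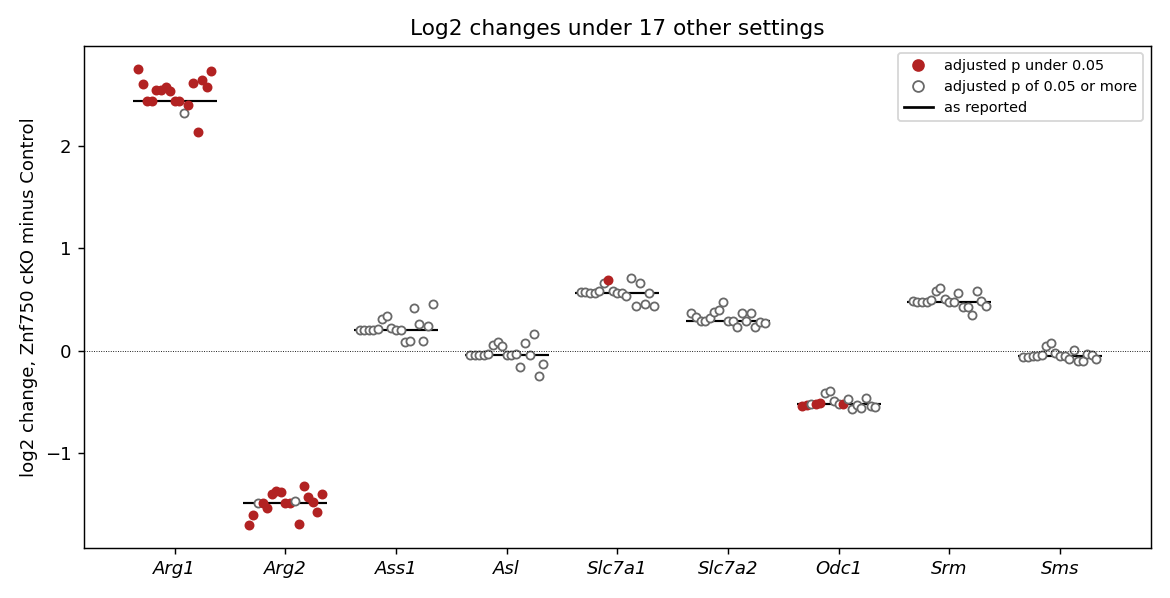
Points give the log2 change of each of the 9 tested genes, Znf750_cKO minus Control, under 17 other settings, filled where the adjusted p is under 0.05, with a line at the reported value. Arg1 stays between 2.13 and 2.75 and Arg2 between -1.70 and -1.32, while most Odc1 points are open. The filling is a description, as these genes were chosen with the contrast known.

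The wider pathway was read from 52 further genes in 7 lists, of which 37 were tested. Of these 37, 1 was called higher, 2 were called lower and 34 did not pass, where 4.22% of all tested genes were called, 17 had a positive log2 change, and the median log2 change was -0.0076. The gene called higher was Sat1, and those called lower were Ddah2 and Gatm, of which Gatm passed the filter on low values through the Control libraries alone. The groups did not overlap in 9 of the 37, of which 4 were higher and 5 lower, against 28.0% of all tested genes. Nothing particular to these lists is read from these counts.

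Sat1, spermidine/spermine N1-acetyltransferase, which acetylates polyamines for export or breakdown, rose. It had 156, 123 and 176 FPKM in Znf750_cKO libraries and 101, 81.1 and 84.7 FPKM in Control libraries. All Znf750_cKO libraries were above all Control libraries, with means of 151 ± 26.7 FPKM in Znf750_cKO and 89.0 ± 10.7 FPKM in Control (SD, n = 3 each). The log2 change was 0.75 (SE 0.15, limma adjusted p = 0.039). Of the 6 fits with a single library left out, it was called in 1, in which Znf750_cKO replicate 2 was absent. Over all 17 other settings, these fits among them, Sat1 was called in 6 (limma adjusted p from 0.016 to 0.16). The ratio of Sat1 to Odc1 was 7.58, 5.18 and 7.89 in Znf750_cKO and 3.30, 2.32 and 2.71 in Control, a gap that follows from the levels of both genes. The other 5 tested genes of polyamine catabolism and export did not pass. They include the oxidases Smox, at 62.5, 57.7 and 68.8 FPKM in Znf750_cKO and 56.0, 63.3 and 64.9 FPKM in Control, and Paox, at 12.6 to 14.8 FPKM in Znf750_cKO and 12.8 to 13.8 FPKM in Control, which were named after their values were seen.

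None of the 6 tested genes of polyamine synthesis control passed, at a median log2 change of 0.07. Oaz1, the main antizyme, was the most abundant, at 354, 361 and 309 FPKM in Znf750_cKO and 294, 347 and 338 FPKM in Control (log2 change 0.06, limma adjusted p = 0.82). Amd1, the decarboxylase that supplies the aminopropyl group for spermidine and spermine, had 34.4, 35.5 and 42.1 FPKM in Znf750_cKO and 34.6, 36.4 and 31.7 FPKM in Control. Amd1 is named here after its values were seen, and 67.05% of its stretches of 100 bases occur in other transcripts, most of them of Amd2, so its level is uncertain. Of 3 tested genes of hypusine formation, in which spermidine modifies a translation factor, none passed. Eif5a, that factor, had 436, 533 and 499 FPKM in Znf750_cKO and 434, 521 and 492 FPKM in Control (log2 change 0.02, adjusted p = 0.95). None of the 5 genes of methionine salvage, which recycles the by-product of polyamine synthesis, passed. Its most abundant member was Mri1, at 22.7 ± 2.92 FPKM in Znf750_cKO and 23.6 ± 2.57 FPKM in Control (SD, n = 3 each).

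**Figure D4:**
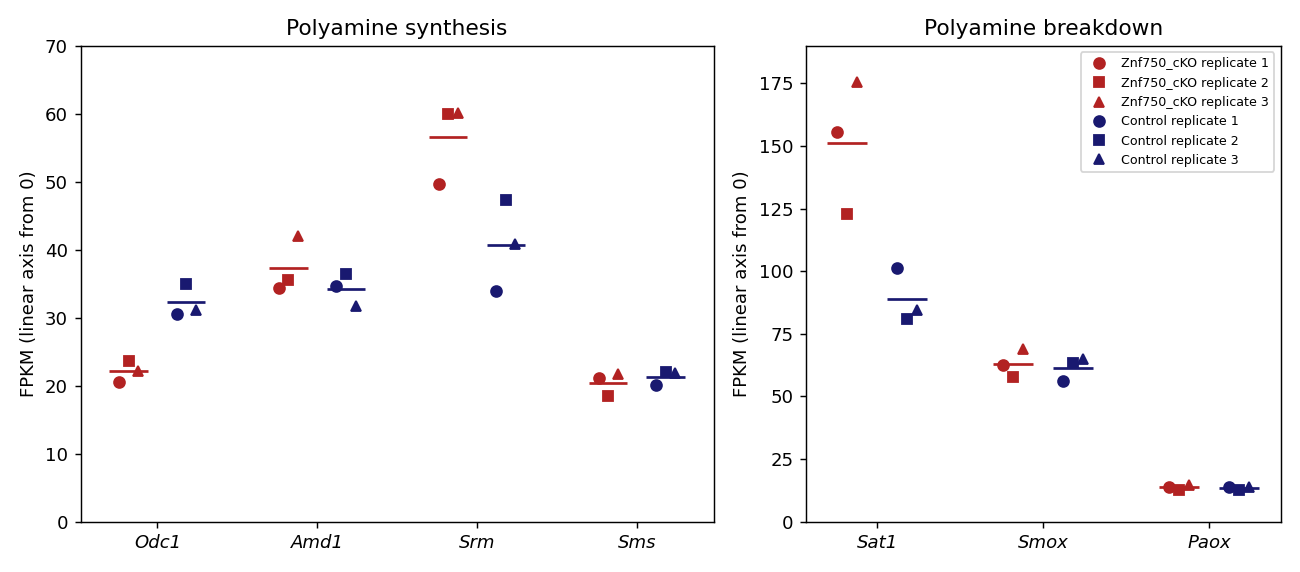
Points give FPKM on linear axes for enzymes of polyamine synthesis (left) and breakdown (right) in each library, Znf750_cKO left of Control for each gene, with lines at group means. Odc1 is lower and Srm and Sat1 are higher in every Znf750_cKO library than in any Control library, and Amd1, Sms, Smox and Paox overlap.

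On the nitric oxide side, Ddah2, named for the breakdown of methylated arginines that inhibit nitric oxide synthases, fell. It had 13.0, 10.8 and 10.1 FPKM in Znf750_cKO libraries and 18.9, 20.4 and 21.7 FPKM in Control libraries, without overlap. The log2 change was -0.80 (SE 0.13, limma adjusted p = 0.018), and the means were 11.3 ± 1.53 FPKM in Znf750_cKO and 20.3 ± 1.37 FPKM in Control (SD, n = 3 each). It was called without any 1 Znf750_cKO library and not without any 1 Control library (adjusted p from 0.018 to 0.086 over 17 other settings). The other 3 tested genes of the list did not pass, among them the most abundant, Spr, which makes the cofactor tetrahydrobiopterin, at 32.6 ± 3.40 FPKM in Znf750_cKO and 30.9 ± 1.60 FPKM in Control. Nos1 and Nos3, the neuronal and endothelial synthases, were at 0.15 FPKM or less in Znf750_cKO and 0.17 FPKM or less in Control, and were not tested.

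Among genes of ornithine, proline and creatine, Gatm, which moves the amidino group of arginine to glycine in creatine synthesis, had low levels in both groups. It stood at 0.22, 0.23 and 0.57 FPKM in Znf750_cKO and 2.98, 1.22 and 1.93 FPKM in Control, and it was tested only because of the Control libraries, so its call is not read as a result. Its log2 change was -1.15 (SE 0.25, limma adjusted p = 0.046, and 0.065 with the replicate number as a block), and it was not called in any of the 6 fits that leave out 1 library (adjusted p from 0.037 to 0.17 over 17 other settings). Gamt, the next enzyme of creatine synthesis, was under the filter and not tested, at 0.32, 0.08 and 0 FPKM in Znf750_cKO and 1.52, 1.31 and 0.91 FPKM in Control, and is named after its values were seen. The most abundant gene of this list was Oat, which turns ornithine towards proline and glutamate, at 73.0 ± 12.2 FPKM in Znf750_cKO and 82.0 ± 11.6 FPKM in Control (limma adjusted p = 0.59). The urea cycle genes Otc and Nags were listed at 0 in all 6 libraries, and Cps1 was at 0.08 FPKM or less in Znf750_cKO and 0.07 FPKM or less in Control. The macrophage, hair follicle and red blood cell marker sums given with the arginases were lower in Znf750_cKO, as were Ddah2 and Gatm. Most of the hair follicle sum was Krt79, the other hair follicle markers did not share 1 direction, and some red blood cell markers overlapped. The part of those cells was not tested.

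Of 5 tested genes among the other arginine and ornithine transporters, none passed. The most abundant was Slc3a2, the shared heavy chain of several amino acid exchangers, at 78.8, 76.1 and 77.1 FPKM in Znf750_cKO and 61.3, 57.1 and 66.5 FPKM in Control. The groups did not overlap, and the log2 change was 0.32 (SE 0.096, limma adjusted p = 0.10).

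**Figure D5:**
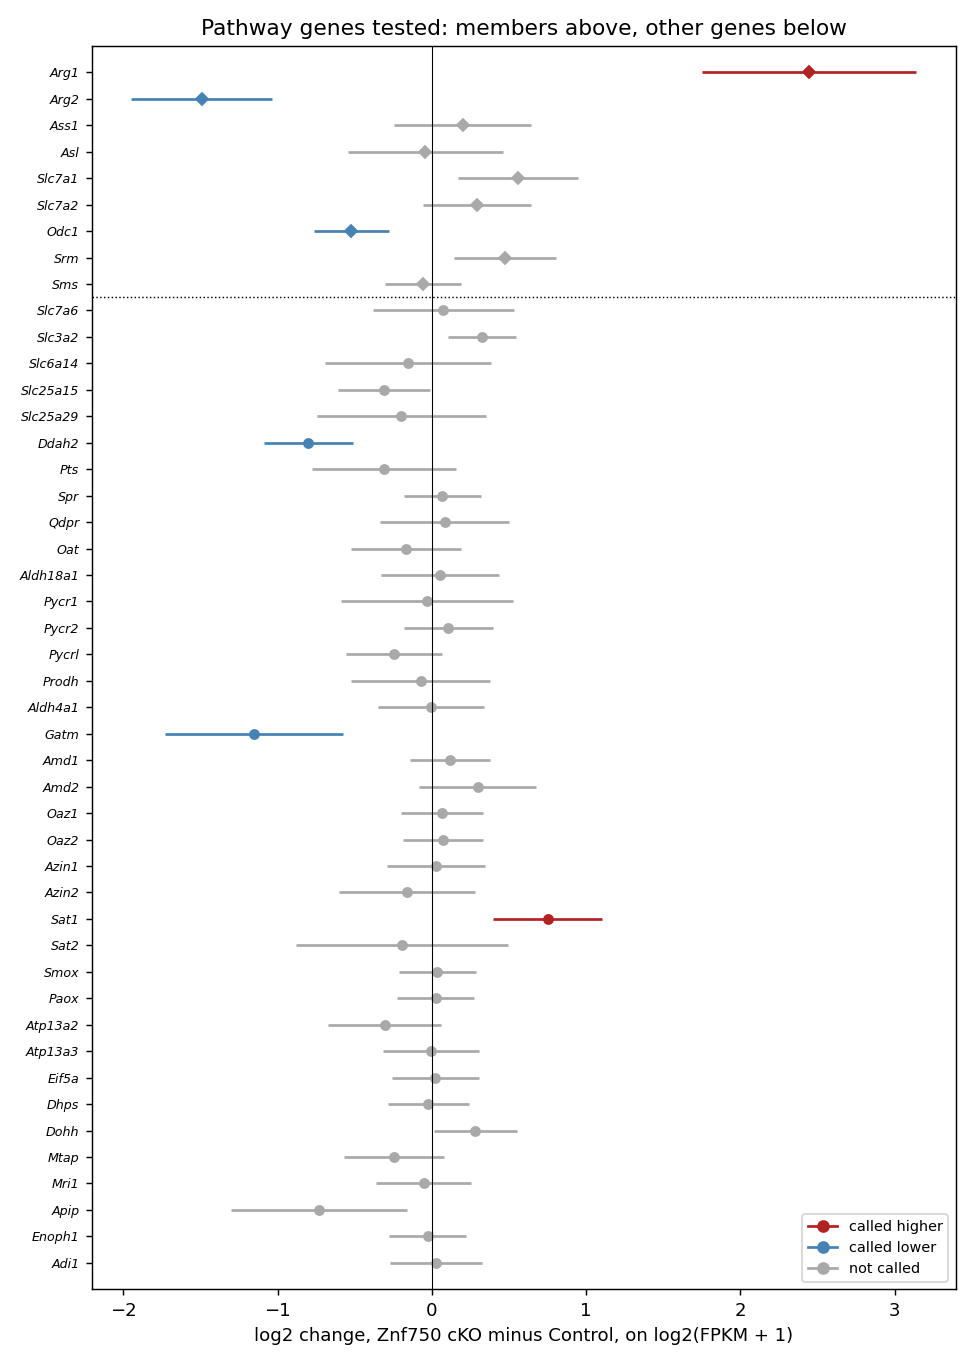
Log2 changes on the log2(FPKM + 1) scale, Znf750_cKO minus Control, with 95% intervals, for 9 tested genes of the set (diamonds, top) and 37 tested genes of the wider pathway (circles), colored by the call (limma adjusted p under 0.05), from which nothing is read for the genes of the set. Among the called genes Arg1 at 2.44 and Sat1 at 0.75 lie above 0, and Arg2 at -1.49, Gatm at -1.15, Ddah2 at -0.80 and Odc1 at -0.52 lie below 0. Genes not called are gray.

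By Pearson's r of log2(FPKM + 1) over the 6 libraries, the genes most like Arg1 among 11930 with a mean of at least 2 FPKM were Ddx27, Nectin2, 1700020L24Rik, Pcdh7 and Bicd2, with r from 0.989 to 0.997. Of these, 1700020L24Rik had 11.9, 10.8 and 9.03 FPKM in Znf750_cKO and 0.74, 1.55 and 1.84 FPKM in Control. Ddx27, which had the highest r, differed far less in size, with means of 26.2 FPKM in Znf750_cKO and 22.2 FPKM in Control. The genes most like Arg2 were Fig4, Nucb2, Abcb10, Ogfrl1 and Hikeshi, with r from 0.993 to 0.999. Nucb2 had means of 9.13 FPKM in Znf750_cKO and 12.8 FPKM in Control. With 6 libraries in 2 separate groups, r mostly reflects the group difference, and it describes these libraries only.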

How the data were processed

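Each file holds 1 value, FPKM per the file headers, for each of 55487 Ensembl genes, and there are 6 libraries. The submitters' processing notes name RSEM 1.2.28, STAR 2.5.2a, cutadapt 1.15, Trim Galore 0.4.5, MultiQC 1.0, FastQC 0.11.8 and DESeq2, and the builds GRCm38 and mm10. The sources used here state neither their roles nor the annotation release nor the strand setting. RSEM divides reads that fit several genes by estimated abundance, so genes that share sequence are less certain.

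Genes at 1 FPKM or more in at least 3 libraries were tested with limma 3.58.1 (R 4.3.3, intensity trend, robust variances) on log2(FPKM + 1), with no covariate besides group, and p-values were adjusted by Benjamini-Hochberg over 13688 genes. "Rose", "fell" and "called" mean an adjusted p under 0.05. The procedure was tested on simulated data with errors drawn independently for each gene and library, so shared variation between libraries was not covered. Symbols matched 55141 identifiers. Shared sequence was counted as identical stretches of 100 bases, on either strand, among GENCODE M21 transcripts. Depth was estimated from whole-read steps in the FPKM of genes with 1 transcript, where 71.8 to 77.8% of values per library came within 0.1 read of a whole number. The step search was settled after the values were seen and entered no test.

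The genes and lists were chosen with earlier results of these data known. From each wider list the text names the members past the threshold and the most abundant member, and says where it goes further. After removal of group means, libraries with the same replicate number correlated at 0.31, 0.17 and 0.48 for numbers 1, 2 and 3, so a fit with the number as a block was run. Of unlike numbers, Znf750_cKO replicate 2 and Control replicate 1 correlated at 0.24, above the value for number 2, and the other 5 correlations were negative. With group means removed, the libraries of a group balance out, so negative values must come with positive ones and add no support for a pairing. The pairing rests on these correlations alone, because no label explains the numbers. Alternatives covered the pseudocount, the filter, scaling, the variance model, the block and left-out libraries. Figures used Python 3.11.15 and matplotlib 3.10.9.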

Additional observations from a re-analysis of the deposited data

How the results depend on the processing

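Of 9 tested arginine and polyamine genes, 3 were called, against 1 without a filter on low values (Arg1, with 35621 genes tested) and 0 to 2 with any 1 library left out. Of 37 wider genes, 3 were called, against 0 without a filter, 1 with a mean FPKM of at least 1, 1 with TPM scaling, 1 with quantile normalisation, 1 without trend and robust variances, 0 without replicate 3 of both groups, and 0 to 2 with any 1 library left out. Over all genes 577 were called, against 85 without a filter, and 100 to 356 with any 1 library left out. With the replicate block 392 genes were called over all, 136 higher and 256 lower, with Arg1, Arg2, Odc1, Ddah2 and Sat1 among them, and of the 6 calls among the 9 and the 37 genes it ended that of Gatm. The 152 higher and 425 lower genes became 248 and 265 with median-ratio scaling. They became 238 and 253 with trimmed-mean (TMM) scaling, and 201 and 218 with quantile normalisation. The median log2 change of all genes was -0.08 as reported and 0.02, 0.04 and 0.01 with these scalings, in that order. Log2 changes of genes that were not called turned round as follows. Asl was 0.057, 0.083 and 0.044 with median-ratio scaling, TMM scaling and quantile normalisation and -0.25 to 0.16 with 1 library left out. Sms was 0.047 and 0.074 with median-ratio and TMM scaling and -0.10 to 0.0098 with 1 left out. Mri1 was 0.051 and 0.078 with the same scalings, 0.12 without replicate 3 of both groups and -0.13 to 0.051 with 1 left out. With 1 library left out, Spr ran from -0.014 to 0.11, Oaz1 from -0.0089 to 0.13 and Eif5a from -0.053 to 0.10. The cause of these moves was not tested. Counting precision is limited for Nos2, at no more than about 1 read a library.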
